A study of Homo sapiens with 26 samples.

Results

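This account covers glucose uptake and glycolysis in 786-O cells, a human clear cell renal carcinoma line. The members are 34 genes listed by symbol: 6 hexose transporters of the SLC2A family, the enzymes that turn glucose into pyruvate and lactate, the PFKFB enzymes that tune the pathway, pyruvate dehydrogenase subunit PDHA1 with 3 of its kinases, and 3 enzymes of glycogen metabolism. One probe set stood for each gene, the brightest on average of those assigned to that gene alone. The 34 members have 73 such probe sets, of which 70 passed the filter on low signals, and 19 members have more than 1. All 34 members passed the filter on low signals, among 15120 genes that passed of 19775 with a single-gene probe set.

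Expression was measured on 26 Affymetrix U133 Plus 2.0 arrays, each hybridised with labelled RNA of one sample. The titles give 8 groups of 3 arrays: untreated cells (Blk), cells mock treated with the solvent DMSO, cells given compound 40, 41, 76 or 77, and groups titled PRC3 and WT8. Single arrays are titled pTR and pTV. The series text names untreated and DMSO cells and 4 HIF-2a inhibitors found in a chemical genetic screen, so Blk was taken as untreated and the numbers as the compounds by elimination. The sources used here give neither doses nor exposure times, nor what PRC3, WT8, pTR and pTV hold. Nor do they say whether replicates were grown separately, so a p-value here reflects array-to-array spread that may be technical. In other work PRC3 and WT8 name clonal sublines of this line with an empty vector and with wild-type VHL, but the titles here carry no such statement. All groups share the 786-O background, a line known to lack working VHL and to hold HIF-2a without HIF-1a.

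Glucose enters cells through SLC2A transporters and is trapped by hexokinase, committed by phosphofructokinase and carried through aldolase, the triose enzymes, enolase and pyruvate kinase to pyruvate. Lactate dehydrogenase turns pyruvate into lactate, while pyruvate dehydrogenase sends it to mitochondria unless its kinases, the PDKs, switch it off. Most steps have several isozymes coded by separate genes. Hypoxia-inducible factors (HIFs) bind a short core sequence, ACGTG or GCGTG, and many glycolytic genes are textbook HIF targets. VHL marks the HIF-alpha subunits for destruction, and its loss is the founding event of most clear cell renal carcinomas.

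The median deposited signal of an array lay between 20.2 and 27.4, little above the floor of 20 set under all signals, and the number of arrays limits the precision. WT8 replicate 3 stood apart: its ACTB control probe sets gave a 3 prime over 5 prime ratio of 2.37, where no other array exceeded 1.39, and its GAPDH controls gave 1.32, where no other array exceeded 1.06. Replicates 2 and 3 of compound 40 had been scaled upstream in another way than the other arrays, since 24 deposited columns shared a mean of 142.78 to 142.79 and these did not. Markers of renal epithelium (7 genes, PAX8 and KRT18 among them) summed to 11643 to 12950 per group, while those of leukocytes (3 genes, PTPRC at the floor on all 24 replicated arrays) summed to 60 to 65.7. Markers of endothelium (4 genes, VWF at the floor throughout) summed to 122 to 149, and those of fibroblasts (5 genes) to 174 to 285, where LUM was higher in WT8 than in PRC3 (log2 change 1.54, adjusted p = 6.57e-04), and its part in the results was not tested. In a bulk measurement, fewer cells that express a gene and less RNA per cell cannot be told apart. EPAS1, which encodes HIF-2a, passed the test in none of the 7 comparisons. VHL read 59.2 ± 14.9 (SD, n = 3) in WT8 and 55.4 ± 24.6 in PRC3, so its probe set does not tell the groups apart. The probe set of HIF1A stayed near the floor.

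With 3 arrays per group and a threshold adjusted over all probe sets, smaller differences among the members can be missed. The members that passed the test in at least 1 of 7 comparisons were SLC2A1, SLC2A8, SLC2A10, GPI, PFKL, PFKM, PFKP and ENO2. How many of all genes passed in at least 1 was not counted, so shares are given for each comparison. A member is said to have risen or fallen where the adjusted p of limma's moderated test (Benjamini-Hochberg over 35013 probe sets) was below 0.05. Between WT8 and PRC3, 1 member was higher and 5 were lower in WT8, where 3.26% and 2.71% of all genes were called in those directions. With the replicate number as a block, 1 was higher and 7 were lower, and 2313 probe sets were called in place of 1597. Compound 41 raised 1 member and lowered 1 against DMSO (1.71% and 1.63% of all genes), and compound 76 raised 0 and lowered 2 (1.02% and 0.761%). Compound 40 had 0 calls among the members (0.437% of all genes higher and 0.41% lower). At an unadjusted p below 0.05 it had 5 of 34 members and 4090 of all 35013 probe sets. Compound 77 also had 0 calls (0.139% and 0.0397%), with 8 members and 2672 probe sets at an unadjusted p below 0.05. In PRC3 against untreated cells 0 members were higher and 2 lower (0.476% and 0.913%). DMSO against untreated cells gave 0 calls among members and 0% of all genes. There 1 member and 794 probe sets had an unadjusted p below 0.05. At that level WT8 against PRC3 had 13 members and 5476 probe sets, and PRC3 against untreated cells 9 and 3912. Compound 41 had 9 and 4639, and compound 76 had 6 and 3646. The compound comparisons share the DMSO arrays, and those of WT8 and of PRC3 share the PRC3 arrays.

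The median log2 change of the members was -0.19 in WT8 against PRC3, beside 0.01 over all genes, and -0.03 without WT8 replicate 3. Against DMSO it was -0.06 for compound 40, -0.11 for compound 41, -0.06 for compound 76 and -0.15 for compound 77, where all genes lay between 0 and 0.01. In PRC3 against untreated cells it was -0.10, beside -0.003 over all genes. The medians of the compounds depended on the scaling: with signals as deposited that of compound 40 was 0.10 (0.08 over all genes), and with median scaling those of compounds 41 and 76 were -0.016 and 0.004 (0.05 and 0.04 over all genes). Without DMSO replicate 1 that of compound 40 was 0.001, so no direction is given for it or for compound 76. These are descriptions of the list, with no test.

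**Figure D1:**
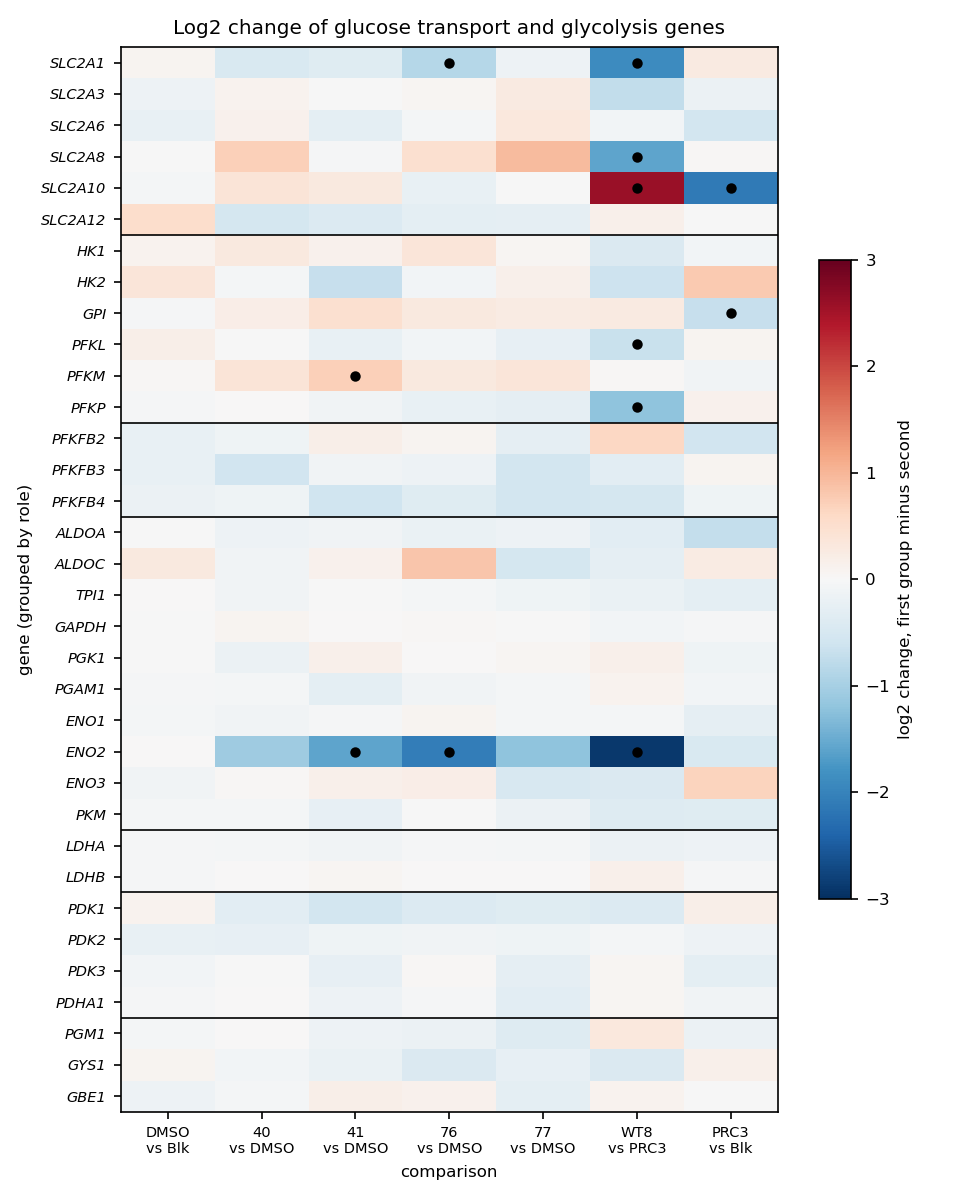
Log2 change of the 34 members (rows, grouped by role) in 7 comparisons (columns, the first group minus the second; numbers are compounds), from blue (lower in the first group) to red (higher). Black points mark changes that passed the test; ENO2 is marked in 3 columns, and its blue cells span all 4 compounds and WT8.

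The HIF core letters were looked for in the promoters, because members fell in WT8 and with HIF-2a inhibitors. RefSeq windows of GRCh38.p14, from 250 bases before to 50 after each gene's start, were found for 32 of the 34 members. ACGTG or GCGTG stood on either strand in 22 of 32 members (68.8%) and in 48.4% of all 27305 genes. ACGTG stood in 34.4% of members and 21.6% of all genes, and GCGTG in 53.1% and 36.3%, with windows that hold both counted in each. Where CACGTG occurs, both strands match at overlapping letters. The windows of 25 bases below hold a match in capitals, read 5′ to 3′ along the gene's own strand, for 4 members that were called and for the isozymes ENO1 and LDHA that were not.
ENO2, chr12:6914452-6914476, plus strand, 118 bases before the start: ccgcgctcgtACGTGcgcctccgcc
ENO1, chr1:8878744-8878768, minus strand, 72 bases before the start: agctgaggggGCGTGccccggaggc
PFKL, chr21:44299879-44299903, plus strand, 164 bases before the start: ctcagggcccGCGTGacattgcaca
SLC2A10, chr20:46709566-46709590, plus strand, 73 bases before the start: tggctggccgACGTGgcgttggcgg
GPI, chr19:34364820-34364844, plus strand, 162 bases before the start: actgcctgtaACGTGgaaggtgttc
LDHA, chr11:18394369-18394393, plus strand, 184 bases before the start: ctcccagcgcACGTGgagcagtctg
The match of SLC2A1 lay 25 bases after its start, and the windows of SLC2A8, PFKM and PFKP held neither sequence. Members with these letters were thus among the called and the uncalled alike, and a match is only a description of the sequence.

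SLC2A1 encodes GLUT1, the basal glucose transporter of most cells and a textbook HIF target. Its signals in replicate order were 1077, 976 and 969 in PRC3 and 287, 256 and 272 in WT8. The groups lay far apart, and SLC2A1 fell 3.71-fold, a log2 change of -1.89 (SE 0.17, adjusted p = 1.02e-07) that read -1.89 without WT8 replicate 3. Untreated cells gave 956, 770 and 784 and DMSO cells 1011, 876 and 784, which overlapped. The 3 arrays of compound 76 gave 536, 526 and 423, all below every DMSO array. SLC2A1 thus fell 1.8-fold with compound 76, a log2 change of -0.85 (SE 0.17, adjusted p = 0.00675), and the adjusted p was 0.0588 without DMSO replicate 1 and 0.067 without compound 76 replicate 3. Signals were 786.2, 693 and 498 with compound 40, 863, 623 and 602 with compound 41 and 958, 737 and 727 with compound 77. Each of these groups overlapped DMSO, with log2 changes of -0.45 (SE 0.17, adjusted p = 0.249), -0.37 (SE 0.17, adjusted p = 0.324) and -0.14 (SE 0.17, adjusted p = 0.925). Another SLC2A1 probe set also fell in WT8, by 1.49 on the log2 scale (adjusted p = 9.42e-04), from 74.9 ± 16.5 to 26.5 ± 3.81 (SD, n = 3).

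SLC2A3 encodes GLUT3, a high-affinity glucose transporter best known from neurons. Its signals were 180.1, 107 and 107 in PRC3 and 96.2, 71.4 and 64.3 in WT8, lower in every WT8 array. The change of -0.74 (SE 0.25, adjusted p = 0.106) missed the threshold, and it passed with the replicate number as a block (SE 0.20, adjusted p = 0.0268). Untreated cells gave 202, 140.5 and 106 and DMSO cells 177, 114 and 109.5. With the compounds the signals were 154, 134 and 134 (40), 163, 118 and 112 (41), 140.5, 142 and 123 (76) and 129.7, 185 and 164 (77), each overlapping DMSO. Its probes can also bind the near-identical SLC2A14, so the 2 transcripts cannot be told apart with certainty.

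SLC2A10 encodes GLUT10, a facilitative transporter of the endomembranes whose loss causes arterial tortuosity. PRC3 gave 20, 29.2 and 20, with 2 of 3 arrays at the floor, and WT8 gave 136, 154 and 122. SLC2A10 was at least 6.02-fold higher in WT8, a log2 change of 2.59 (SE 0.20, adjusted p = 1.11e-08), and 2.67 without WT8 replicate 3. Untreated cells gave 99.1, 83.9 and 115, so SLC2A10 was at least 4.34-fold lower in PRC3 than in untreated cells, a log2 change of -2.12 (SE 0.20, adjusted p = 6.21e-07). The floor sets both sizes: with a floor of 50 the log2 changes were 1.45 (adjusted p = 1.74e-06) and -0.98 (adjusted p = 4.94e-04). The low group is therefore PRC3, while the WT8 arrays all lay above every untreated array. DMSO cells gave 103, 91.5 and 89.4, and no compound moved SLC2A10 past the threshold, with group means from 81.5 ± 7.81 (compound 76) to 123 ± 10.4 (compound 40). The single arrays read 33.9 in pTR and 29.5 in pTV.

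SLC2A8 encodes GLUT8, an intracellular hexose transporter. All 3 WT8 arrays stood at the floor of 20, while PRC3 gave 38.4, 53.8 and 104. It was at least 2.99-fold lower in WT8 (adjusted p = 0.0172), and the adjusted p was 0.118 without PRC3 replicate 3, 0.0585 without WT8 replicate 2 and 0.0452 without WT8 replicate 3. A second probe set gave a log2 change of -0.40 (adjusted p = 0.606). DMSO spread widely, at 24.5, 66.9 and 117, and untreated cells gave 42.7, 71.2 and 66.1. Compound 77 gave 115, 109.5 and 107, within the DMSO range, with a log2 change of 0.94 (SE 0.39, adjusted p = 0.555). Signals were 82.4, 111 and 93.1 with compound 40, 54.4, 55.3 and 58.3 with compound 41 and 66.0, 96.7 and 82.3 with compound 76.

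SLC2A6, a lysosomal hexose transporter, and SLC2A12, which encodes GLUT12, passed the test nowhere. SLC2A6 group means ran from 110 ± 20.5 in WT8 to 179 ± 27 with compound 77. SLC2A12 was at or close to the floor, with its highest replicated array at 36, and the DMSO arrays (34.0, 20 and 36.0) gave the single unadjusted p below 0.05 of DMSO against untreated cells.

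**Figure D2:**
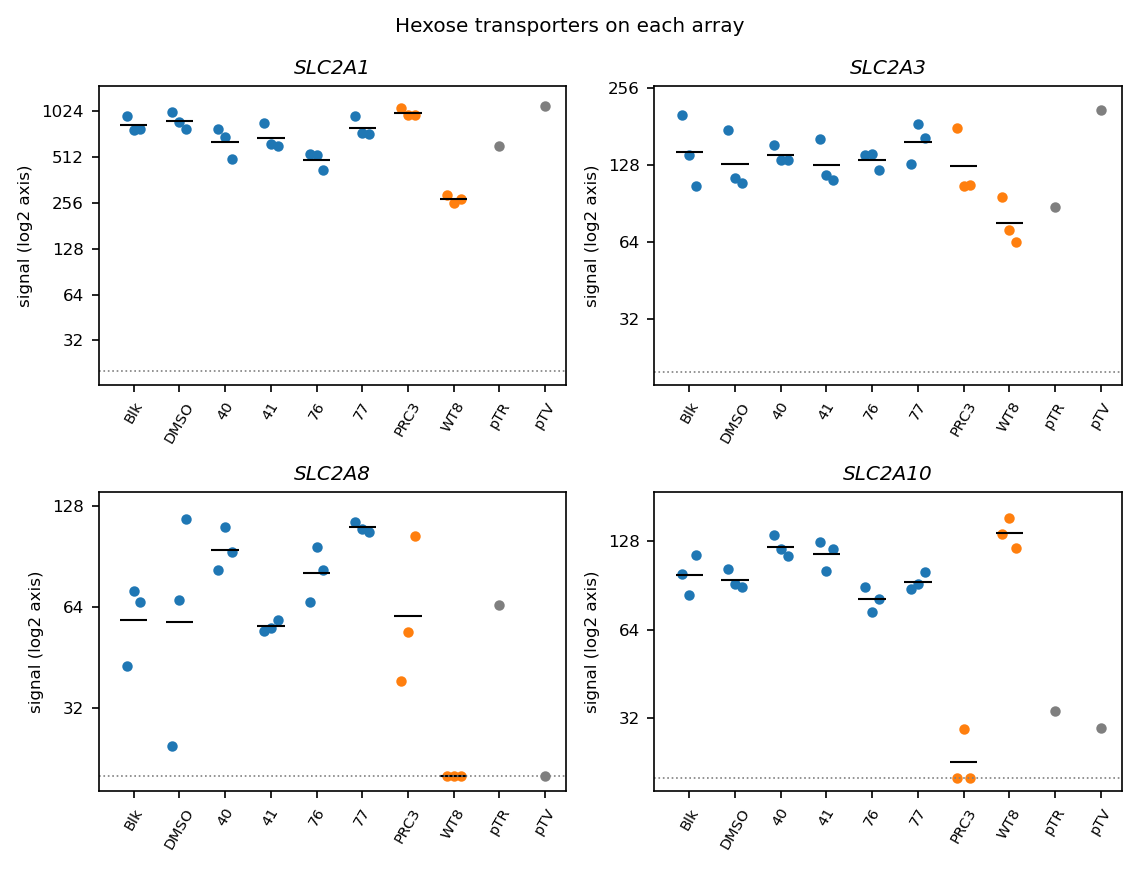
Signals of 4 hexose transporters on every array (points) by group, on a log2 axis; bars are group means of log2 signals and the dotted line is the floor of 20. Among the 8 replicated groups SLC2A1 and SLC2A8 are lowest in WT8 and SLC2A10 is lowest in PRC3; numbers are compounds.

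Hexokinases trap glucose as glucose 6-phosphate. HK1, the constitutive form, gave 431, 527 and 555 in PRC3 and 372, 407 and 336 in WT8, without overlap. The change of -0.44 (SE 0.17, adjusted p = 0.168) missed the threshold and passed with the replicate number as a block (SE 0.13, adjusted p = 0.0354). HK1 read 427, 546 and 644 in untreated and 473, 559.9 and 694 in DMSO cells, and 551, 746 and 832 (compound 40), 623, 565 and 682 (compound 41), 675, 750.2 and 771 (compound 76) and 532, 607 and 656 (compound 77). All 4 compound groups overlapped DMSO.

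HK2, the inducible hexokinase bound to mitochondria in many tumours, gave 192, 189.8 and 232 in PRC3 and 97.5, 127 and 189.7 in WT8. The log2 change was -0.61 (SE 0.21, adjusted p = 0.114), and without WT8 replicate 3 it was -0.87 (SE 0.21, adjusted p = 0.0167), past the threshold. Replicate 3 was the highest of the WT8 arrays for HK2 and the lowest for ALDOA, PKM, TPI1 and GPI, and the part of its control ratios in this was not tested. Untreated cells gave 117, 146 and 96.4, below every PRC3 array, with a change of 0.79 (SE 0.21, adjusted p = 0.0789). DMSO gave 144, 184 and 132, and compound 41 gave 106, 85.8 and 89.1, below every DMSO array, a change of -0.70 (SE 0.21, adjusted p = 0.0857). Signals were 139, 161 and 136 with compound 40, 159, 148 and 125 with compound 76 and 196, 156 and 154 with compound 77, overlapping DMSO.

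GPI, which turns glucose 6-phosphate into fructose 6-phosphate, gave 814, 739 and 853 in untreated cells and 544, 446 and 506 in PRC3. It was 1.61-fold lower in PRC3, a log2 change of -0.69 (SE 0.16, adjusted p = 0.0324). That call was lost in 5 of 6 fits that left out 1 array, with adjusted p up to 0.156. WT8 gave 791, 654 and 419.8, a change of 0.27 (SE 0.16, adjusted p = 0.44) against PRC3, and 0.53 (SE 0.13, adjusted p = 0.0165) without WT8 replicate 3. DMSO gave 803, 705 and 849 and compound 41 1086, 1101 and 1112, above every DMSO array, with a change of 0.49 (SE 0.16, adjusted p = 0.109) that missed the threshold. Signals were 891, 910.3 and 916 (compound 40), 859.8, 959 and 1072 (compound 76) and 998, 813 and 997 (compound 77). Those of compounds 40 and 76 also lay above every DMSO array, and those of compound 77 overlapped DMSO. The changes with compounds 40 and 76, 0.21 (SE 0.16, adjusted p = 0.655) and 0.29 (SE 0.16, adjusted p = 0.558), missed the threshold.

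Phosphofructokinase, which commits sugar to glycolysis, is built from the liver (PFKL), muscle (PFKM) and platelet (PFKP) subunits. PFKP and PFKL fell in WT8 against PRC3, and PFKM rose with compound 41 against DMSO. PFKP gave 2687, 3003 and 2850 in PRC3 and 1202, 1286 and 1238 in WT8. The groups were tight and far apart, and PFKP fell 2.29-fold, a log2 change of -1.20 (SE 0.10, adjusted p = 1.02e-07) that read -1.19 without WT8 replicate 3. Untreated and DMSO cells gave 2898, 2671 and 2295 and 2793, 2441 and 2453. PFKP read 2763, 2531 and 2393 with compound 40, 2626, 2155 and 2355 with compound 41, 2345, 1994 and 2216 with compound 76 and 2289, 1984 and 2090 with compound 77. The last groups lay below all DMSO arrays, yet the changes of -0.23 (SE 0.10, adjusted p = 0.427) and -0.27 (SE 0.10, adjusted p = 0.489) missed the threshold. Another PFKP probe set also fell in WT8, by at least 1.45 on the log2 scale (adjusted p = 0.0443), with 2 of 3 WT8 arrays at the floor.

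PFKL gave 200, 192 and 192 in PRC3 and 179, 104 and 101 in WT8. It fell 1.58-fold, a log2 change of -0.66 (SE 0.19, adjusted p = 0.0413), and the call was lost in 5 of 6 fits that left out 1 array, with -0.52 (adjusted p = 0.184) without WT8 replicate 3. A second PFKL probe set gave -0.63 (SE 0.31, adjusted p = 0.331). PFKL read 182, 201 and 167 in untreated and 228, 209 and 189 in DMSO cells. With the compounds it read 178, 229.6 and 211 (compound 40), 147, 203 and 194 (compound 41), 178, 225 and 193 (compound 76) and 170.4, 183 and 178 (compound 77), and no change passed the test.

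With compound 41 against DMSO, PFKL and PFKP changed by -0.21 and -0.11 (adjusted p = 0.723 and 0.757), and neither passed the test. PFKM passed it in that comparison and not in WT8 against PRC3. DMSO gave 471, 439 and 443 and compound 41 gave 768, 733 and 722, with every treated array above every DMSO array. PFKM rose 1.65-fold with compound 41, a log2 change of 0.72 (SE 0.13, adjusted p = 0.00244). It read 532, 658 and 592 with compound 40, 490.2, 619.5 and 558 with compound 76 and 578, 594 and 576 with compound 77. These also lay above all DMSO arrays, with changes of 0.39 (SE 0.13, adjusted p = 0.186), 0.30 (SE 0.13, adjusted p = 0.396) and 0.37 (SE 0.13, adjusted p = 0.409) that missed the threshold. Untreated cells gave 406, 461 and 452, PRC3 447, 397 and 391 and WT8 513, 432 and 338, which all overlapped, and the WT8 change was 0.04 (95% interval -0.23 to 0.30). For PFKL and PFKP that interval was -1.04 to -0.27 and -1.41 to -0.98; the differences between the 3 genes were not tested.

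The PFKFB enzymes make and break fructose 2,6-bisphosphate, the strongest activator of phosphofructokinase, and none passed the test. PFKFB3, the form with the highest kinase activity, gave 344, 258 and 308 in DMSO cells and 210.5, 198 and 207 with compound 77, below all DMSO arrays, a change of -0.55 (SE 0.24, adjusted p = 0.596). Compound 40 gave 331, 119.5 and 206, spread widely, with a change of -0.58 (SE 0.24, adjusted p = 0.332) that became -0.94 (SE 0.22, adjusted p = 0.029) without compound 40 replicate 1, leaving the 2 arrays that were scaled another way upstream. PFKFB3 read 252, 265 and 332 with compound 41 and 298, 235 and 286 with compound 76. It read 382, 290 and 384 in untreated cells, 491, 342 and 306 in PRC3 and 295, 276 and 324 in WT8, with overlap between PRC3 and each of the others. PFKFB4, a hypoxia-induced form, gave 90.6, 93.6 and 70.2 in PRC3 and 61.2, 57.9 and 55.4 in WT8, lower on every WT8 array, a change of -0.53 (SE 0.23, adjusted p = 0.227). Against 84.0, 69.9 and 93.7 in DMSO cells, it read 75.5, 80.4 and 69.8 (compound 40), 52.6, 47.5 and 64.7 (compound 41), 55.9, 74.9 and 61.1 (compound 76) and 60.9, 47.8 and 61.5 (compound 77), and 124, 82.1 and 77.7 in untreated cells. The arrays of compounds 41 and 77 all lay below DMSO, with changes of -0.59 (SE 0.23, adjusted p = 0.207) and -0.54 (SE 0.23, adjusted p = 0.555). PFKFB2, the heart form, stayed between 20 and 43.6 on all 24 arrays. It read 20, 27.5 and 24.5 in PRC3 and 40.0, 33.4 and 37.4 in WT8, a change of 0.63 (SE 0.23, adjusted p = 0.129). Its other groups gave 35.4, 35.9 and 35.2 (untreated), 33.0, 28.2 and 30.4 (DMSO), 27.5, 32.9 and 24.1 (40), 43.5, 30.5 and 31.0 (41), 42.3, 28.6 and 27.9 (76) and 20, 24.5 and 32.6 (77).

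Below this step, ENO2 was the only member whose representing probe set passed the test in any comparison. The probe sets of SLC2A3, PFKL, ALDOA, TPI1, GAPDH and LDHB carry the suffix that marks probes shared with other sequences, so related transcripts or pseudogenes may add to their signals. Aldolase A (ALDOA), which splits fructose 1,6-bisphosphate, gave 3748, 3102 and 3437 in PRC3 and 3923, 3539 and 1509 in WT8, where replicate 3 alone lay below every PRC3 array. Untreated cells gave 5446, 5539 and 5814, all above PRC3, a change of -0.71 (SE 0.20, adjusted p = 0.0951) in PRC3. A second ALDOA probe set fell from 5273 ± 123 to 3228 ± 400 (SD, n = 3) in the same comparison, a log2 change of -0.71 (SE 0.16, adjusted p = 0.0299). DMSO gave 5515, 5163 and 6033, and the compounds gave 4937, 5115 and 5048 (compound 40), 4770, 5272 and 5362 (compound 41), 4654, 4815 and 5115 (compound 76) and 4692, 5013 and 5241 (compound 77), none called. Aldolase C (ALDOC), the brain form, read 59.3, 42.4 and 30.2 in DMSO cells and 90.1, 60.1 and 78.3 with compound 76, all higher, yet the change was 0.83 (SE 0.47, adjusted p = 0.606). Its signals were 57.8, 24.5 and 43.4 (compound 40), 41.5, 32.2 and 73.1 (compound 41) and 23.1, 29.2 and 38.5 (compound 77). They were 58.4, 22.9 and 30.3 in untreated cells, 88.1, 38.5 and 20 in PRC3 and 56.9, 31.0 and 21.5 in WT8, where replicate spread exceeded any difference.

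TPI1, which interconverts the triose phosphates, had group means from 2901 ± 660 (SD, n = 3) in WT8 to 4059 ± 218 in DMSO, and WT8 replicate 3 was its lowest array at 2150. GAPDH, the oxidising step, ran only from 7764 ± 357 in WT8 to 8822 ± 235 with compound 40. PGK1, the first ATP-forming step, ran from 3574 ± 411 with compound 40 to 4402 ± 73.2 with compound 41. None of these passed the test in any comparison. In WT8 against PRC3 the 95% intervals of the log2 change were -0.23 to 0.08 for GAPDH, -0.02 to 0.34 for PGK1 and -0.44 to 0.06 for TPI1. PGAM1, the mutase that follows, gave 4640, 4855 and 4770 in DMSO cells and 3902, 3880 and 3839 with compound 41, below every DMSO array. Its change of -0.30 (SE 0.08, adjusted p = 0.061) missed the threshold and passed with the replicate number as a block (SE 0.07, adjusted p = 0.0235).

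Enolase makes phosphoenolpyruvate, and of its 3 genes ENO2 alone passed the test. ENO2, the neuronal form and a known HIF target, gave 284, 168 and 131 in PRC3 and 36.5, 20.8 and 20 in WT8, with 1 WT8 array at the floor. The groups did not overlap, and ENO2 fell at least 7.44-fold, a log2 change of -2.90 (SE 0.30, adjusted p = 1.05e-06) that read -2.74 without WT8 replicate 3. With a floor of 50 it read -1.88 (adjusted p = 3.69e-04). Untreated cells gave 244, 225 and 296 and DMSO cells 269, 203 and 303, which overlapped. The 12 compound arrays all lay below every DMSO array: 42.8, 68.1 and 74.3 with compound 76, 79.0, 85.4 and 89.5 with compound 41, 156, 79.2 and 109 with compound 77 and 147, 124 and 97.2 with compound 40. ENO2 fell 4.24-fold with compound 76, a log2 change of -2.08 (SE 0.30, adjusted p = 2.28e-04), and 3.01-fold with compound 41, -1.59 (SE 0.30, adjusted p = 0.00328). The changes with compound 77, -1.21 (SE 0.30, adjusted p = 0.132), and compound 40, -1.07 (SE 0.30, adjusted p = 0.105), missed the threshold. With compound 77 it passed without replicate 1 of that compound (-1.46, adjusted p = 0.0461). Compound 40 replicate 1, the array of that group scaled like the others, by itself gave -0.79, a value of 1 array that is no test. In order of mean signal the groups ran WT8, compound 76, compound 41, compound 77, compound 40, PRC3, untreated and DMSO, and WT8 and compound 76 did not overlap the next group up.

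ENO1, the form of most cells, passed the test in no comparison. Its signals were 6076, 5981 and 6317 in PRC3 and 6847, 5413 and 5379 in WT8, which overlapped, with a 95% interval of the log2 change of -0.27 to 0.13 beside -3.51 to -2.28 for ENO2. Untreated and DMSO cells gave 7523, 7208 and 7503 and 7112, 6911 and 7251. Every untreated array lay above PRC3, a change of -0.275 in PRC3 (SE 0.10, adjusted p = 0.225) that missed the threshold. With the compounds ENO1 read 6808, 5831 and 7112 (compound 40), 6604, 7593 and 6463 (compound 41), 7459, 7251 and 7779 (compound 76) and 7251, 6484 and 6866 (compound 77), and the intervals against DMSO all lay within -0.31 and 0.28. ENO3, the muscle form, stayed between 20 and 54.6 on all 24 arrays. It read 50.6, 45.3 and 54.6 in PRC3, 38.3, 43.4 and 31.1 in WT8, 46.5, 32.8 and 20 in untreated and 34.6, 29.7 and 23.4 in DMSO cells. The compounds gave 20, 31.5 and 41.0 (compound 40), 31.1, 26.0 and 41.1 (compound 41), 35.4, 51.4 and 20 (compound 76) and 20, 20.3 and 22.1 (compound 77), and nothing was called. The difference between the enolase genes' changes was not tested.

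**Figure D3:**
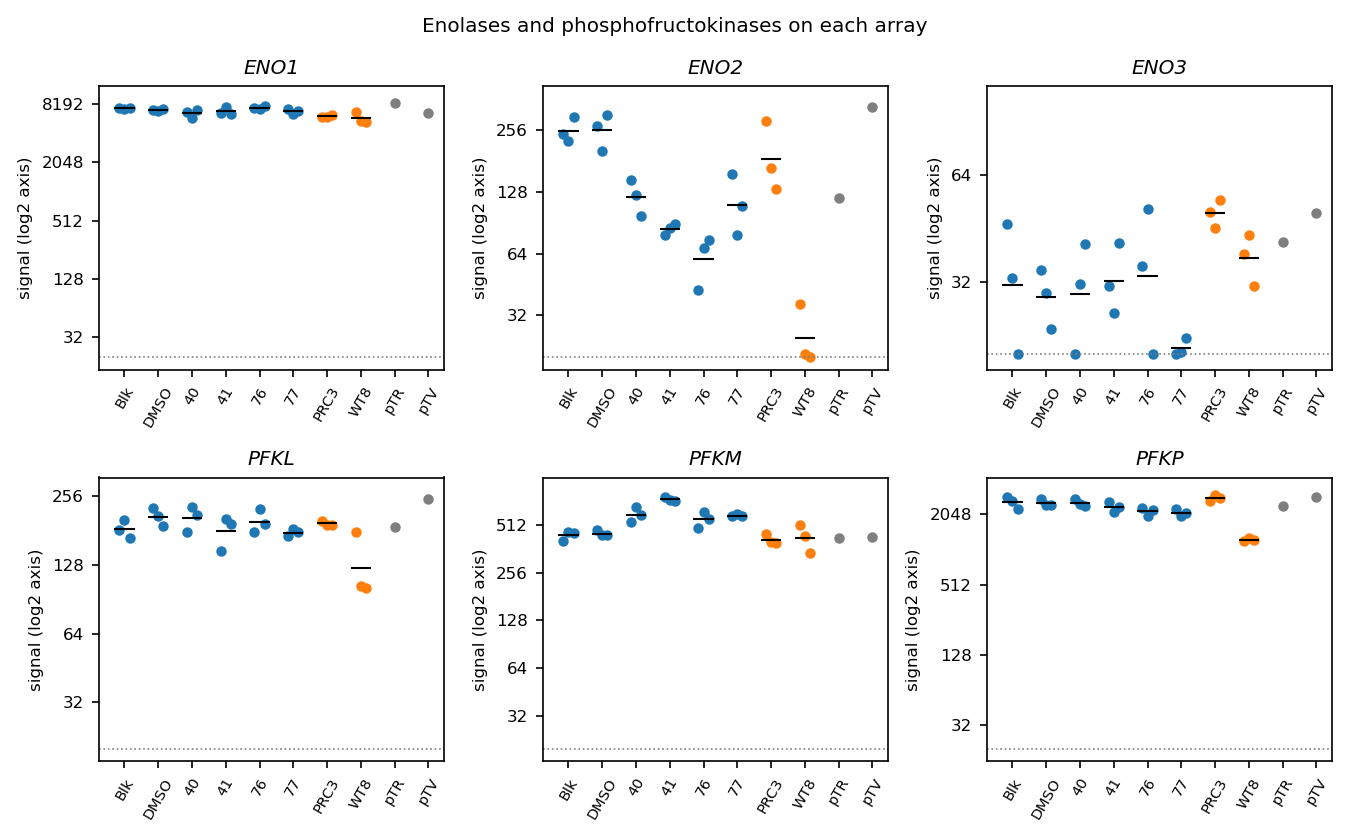
Signals of the 3 enolase and 3 phosphofructokinase genes on every array (points) by group, on log2 axes with different ranges; bars are group means of log2 signals and the dotted line is the floor of 20. ENO2 is low with each compound and lowest in WT8, PFKP is low in WT8 and PFKM is highest with compound 41.

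PKM, which forms pyruvate, gave 5088, 3848 and 3839 in PRC3 and 4680, 3547 and 2069 in WT8, a change of -0.38 (SE 0.19, adjusted p = 0.347); without WT8 replicate 1 it read -0.64 (SE 0.18, adjusted p = 0.0331), past the threshold. No compound changed it past the threshold, and its DMSO mean was 5259 ± 450 (SD, n = 3). Replicate 3 was its lowest WT8 array, as for ALDOA.

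LDHA, which favours lactate and is a textbook HIF target, gave 7036, 6628 and 6563 in PRC3 and 6297, 5831 and 5741 in WT8, all lower, a change of -0.18 (SE 0.08, adjusted p = 0.256). Its 95% interval was -0.34 to -0.02. The other groups gave 7540, 7331 and 7523 (untreated), 7562, 6967 and 7230 (DMSO), 7298, 6563 and 6935 (compound 40), 6655, 6783 and 6719 (compound 41), 7397, 6484 and 7348 (compound 76) and 7079, 6563 and 7153 (compound 77). LDHB, the heart form, gave 5941, 5272 and 4992 in PRC3 and 6076, 5539 and 6419 in WT8, which overlapped. It read 5432, 5379 and 5831 (untreated), 5339, 5539 and 5399 (DMSO), 5667, 5182 and 5571 (compound 40), 5667, 5611 and 5611 (compound 41), 5339, 5645 and 5308 (compound 76) and 5555, 5254 and 5645 (compound 77). No LDH change passed the test.

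PDK1, the HIF-induced kinase that shuts pyruvate dehydrogenase, gave 145, 198 and 167 in PRC3 and 98.8, 121 and 172 in WT8, which overlapped, a change of -0.41 (SE 0.25, adjusted p = 0.477). Other PDK1 probe sets gave -1.07 (SE 0.35, adjusted p = 0.0931) and 0.21 (adjusted p = 0.738). PDK1 read 131, 165 and 185 in DMSO and 124, 158 and 168 in untreated cells. With the compounds it read 142, 84.8 and 169.9 (compound 40), 83.5, 111 and 137 (compound 41), 116, 111 and 129 (compound 76) and 104, 121 and 147 (compound 77), with the lowest change -0.56 (SE 0.25, adjusted p = 0.324) for compound 41. PDK2, the widely expressed kinase, gave 125, 55.0 and 84.4 (untreated), 90.5, 85.2 and 48.6 (DMSO), 106, 64.4 and 61.1 (PRC3) and 116, 71.6 and 45.0 (WT8). The compounds gave 84.2, 54.6 and 48.4 (compound 40), 61.9, 67.1 and 70.2 (compound 41), 84.6, 61.7 and 58.5 (compound 76) and 95.4, 65.8 and 46.3 (compound 77), and the groups overlapped in each comparison. PDK3, a further kinase of the family, gave 129, 103 and 143 (untreated), 145, 120.4 and 92.9 (DMSO), 123, 101 and 84.3 (PRC3) and 112, 121 and 88.3 (WT8), and 112, 112 and 126 (compound 40), 103, 76.5 and 123 (compound 41), 145, 120.5 and 100.1 (compound 76) and 113, 86.8 and 94.2 (compound 77). No change of PDK1, PDK2 or PDK3 passed the test. PDHA1, the catalytic subunit that PDKs phosphorylate, gave 940.5, 1035 and 935 in DMSO cells and 834, 702 and 808 with compound 77, all lower, and its change of -0.32 (SE 0.10, adjusted p = 0.297) missed the threshold.

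In the glycogen branch, PGM1 (which links glucose 6-phosphate and glucose 1-phosphate), GYS1 (the muscle glycogen synthase) and GBE1 (the branching enzyme) passed the test nowhere. PGM1 gave 993, 891 and 829 in PRC3 and 1186, 1164 and 1048 in WT8, all higher, a change of 0.33 (SE 0.16, adjusted p = 0.33). With compound 77 it read 909.9, 559 and 855 against 992, 941 and 1027 in DMSO cells, all lower, a change of -0.38 (SE 0.16, adjusted p = 0.562). GYS1 was lower with compound 76 on every array, 110.2, 122 and 132 against 191, 143 and 164, a change of -0.44 (SE 0.19, adjusted p = 0.362). GBE1 overlapped between groups in each comparison, with means from 550 ± 65.6 (SD, n = 3) with compound 77 to 800 ± 34.1 in WT8.

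The 4 compounds, known here only by number, were set against each other in 6 pairs, with p-values adjusted over all probe sets of the 6 pairs together. None of the 34 members passed in any pair. Of all genes, 0.569% were called between compounds 40 and 41, 0.218% between 40 and 76, 0.516% between 40 and 77, 0.218% between 41 and 76, 0.582% between 41 and 77 and 0.628% between 76 and 77. Between 4 and 6 members per pair had an unadjusted p below 0.05. The matching count over all genes was not made, so that number is not read as a result about the members. The smallest adjusted p, 0.0678, belonged to SLC2A1 between compounds 76 and 77, where the log2 difference was -0.70 (95% interval -1.04 to -0.36). Between compounds 41 and 76 SLC2A1 differed by 0.48 (0.14 to 0.82, adjusted p = 0.305), which passed with the replicate number as a block (SE 0.11, adjusted p = 0.0419). For ENO2 the difference was 1.01 (0.40 to 1.63, adjusted p = 0.195) between compounds 40 and 76, and -0.88 (-1.49 to -0.26, adjusted p = 0.294) between 76 and 77. HK2 differed by -0.85 (-1.29 to -0.40, adjusted p = 0.103) between 41 and 77, and PFKM by 0.42 (0.15 to 0.69, adjusted p = 0.227) between 41 and 76. The members' intervals reached, in the median, 0.39 to either side on the log2 scale. The missed threshold does not show that the compounds act alike. Doses and times are unknown here, so the pairs are compared as deposited.

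**Figure D4:**
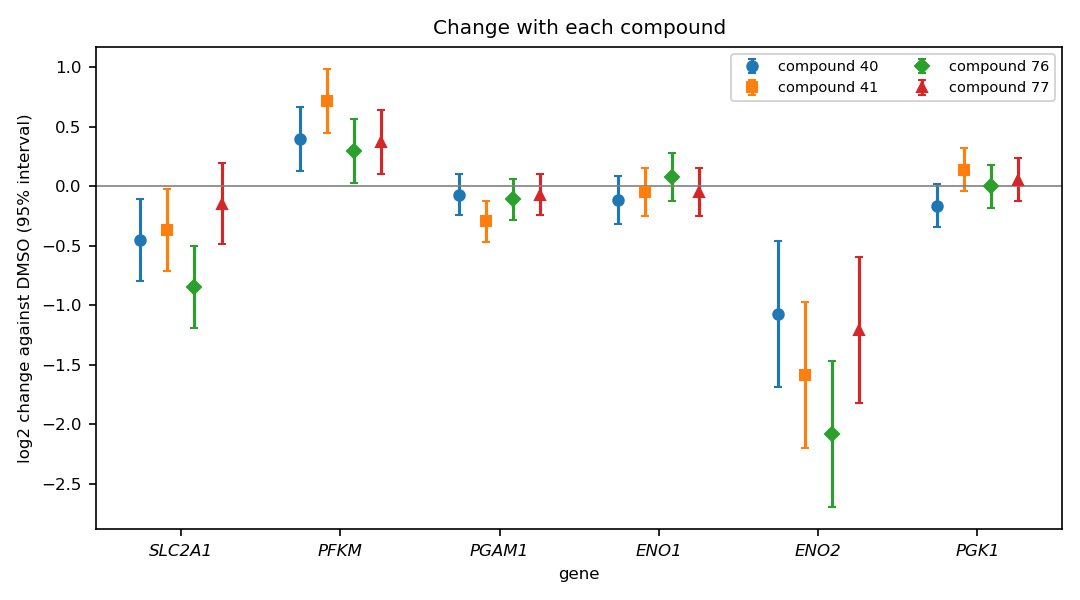
Log2 change against DMSO (points, with 95% intervals from the fit to 24 arrays) of 6 members with each compound; the horizontal line is no change. ENO2 lies below 0 and PFKM above 0 with all 4 compounds, SLC2A1 is lowest with compound 76, and the intervals of ENO1 and PGK1 include 0 with each compound. PGAM1 with compound 41 lies at -0.30, with an interval below 0 that missed the adjusted threshold.

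The arrays titled pTR and pTV have no replicate, so their values carry no test. ENO2 read 119.7 in pTR and 331 in pTV, 2.77-fold lower in pTR, and SLC2A3 read 88.4 and 212, 2.39-fold lower. HK2 read 236 and 98.2, 2.4-fold higher, and SLC2A8 read 64.6 against the floor in pTV, at least 3.23-fold higher. These 2 higher and 2 lower members are those past 2-fold, where 7.09% of all genes were higher and 4.39% lower by as much. SLC2A1 read 610.4 and 1117, 1.83-fold lower in pTR. PFKP gave 2401 and 2873, PFKL 187 and 248, and PFKM 420.2 and 426. Of the 34 members 25 lay within 1.5-fold, and the median log2 difference was 0.01 for members and for all genes.

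**Figure D5:**
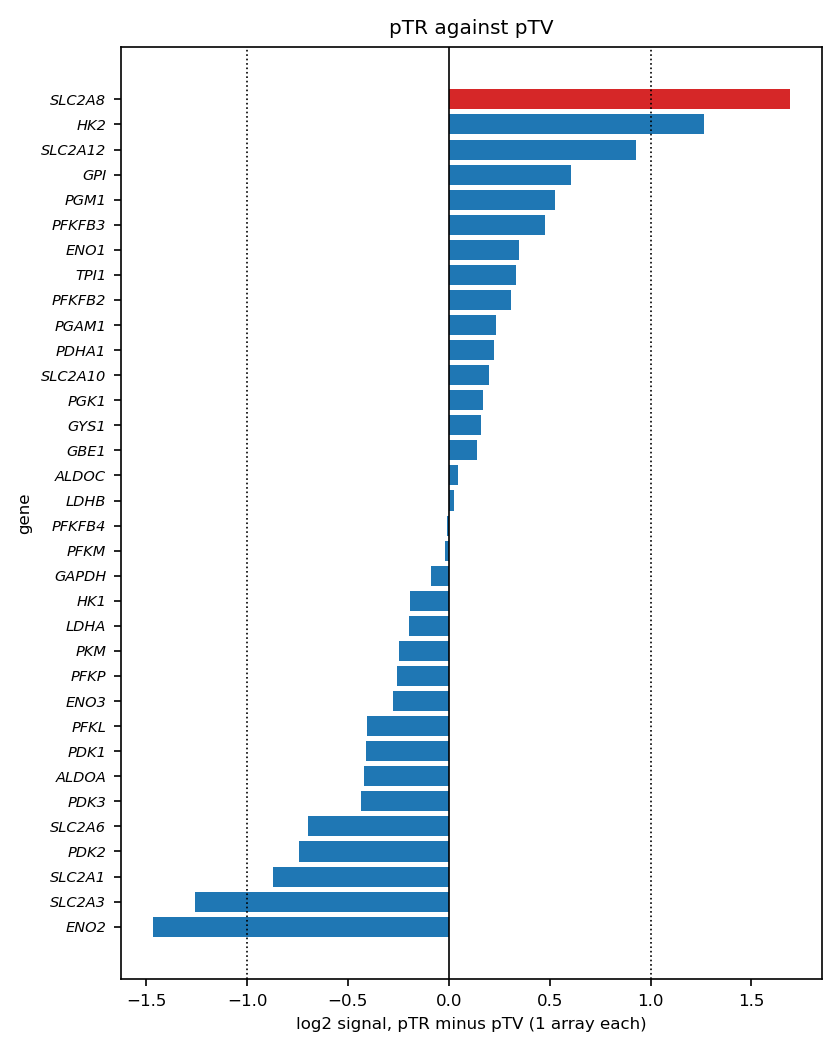
Log2 signal in pTR minus that in pTV for each of the 34 members (bars, 1 array each, no error). Dotted lines mark 2-fold; ENO2 and SLC2A3 lie beyond it on the low side and HK2 and SLC2A8 on the high side, and the red bar (SLC2A8) is a lower bound because pTV was at the floor.

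Neighbouring pathways were read from lists of other genes. Of 9 measured other hexose transporters and their regulators, and of 10 tissue-restricted or duplicate glycolytic isozymes, none passed the test in any of the 7 comparisons. Of 6 genes of gluconeogenesis 1 passed: G6PC3, a glucose 6-phosphatase of most tissues, rose with compound 41 by 0.57 on the log2 scale (SE 0.15, adjusted p = 0.045), from 247 to 368. Of 10 genes of pyruvate and lactate transport and pyruvate dehydrogenase 1 passed: PDK4, the starvation-induced pyruvate dehydrogenase kinase, was near the floor in DMSO cells (22.2 ± 3.75, 2 of 3 arrays at it). It rose to 43.6 ± 6.11 with compound 41 (log2 change at least 0.98, adjusted p = 0.00596) and to 51.1 ± 2.77 with compound 76 (at least 1.22, adjusted p = 9.70e-04). With compound 40 it was 21.9 ± 3.26 and with compound 77 22.8 ± 1.70, and neither passed. Of 18 glycogen genes 1 passed: PYGL, the liver glycogen phosphorylase, fell 1.85-fold in WT8 (log2 change -0.89, SE 0.14, adjusted p = 4.06e-04). Of all genes, 1.71% rose with compound 41, 1.02% rose with compound 76 and 2.71% fell in WT8. A single called gene in lists this short is not read as a result about the list.

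The pentose phosphate pathway branches off at glucose 6-phosphate and makes NADPH, and 3 of its 6 measured genes rose with at least 1 compound. PGD, its second dehydrogenase, stood at 712 ± 95.1 (SD, n = 3) in DMSO cells. It rose to 1476 ± 75 with compound 40 (log2 change 1.06, adjusted p = 0.0145), 1365 ± 14.5 with compound 41 (0.95, adjusted p = 0.0114) and 2096 ± 81 with compound 76 (1.57, adjusted p = 7.90e-05). TALDO1 (transaldolase) rose with compounds 40 and 41, by 0.60 and 0.49, and TKT (transketolase) with compound 40, by 0.72 (adjusted p = 0.0115, 0.0168 and 0.042). So 3, 2, 1 and 0 of 6 genes rose with compounds 40, 41, 76 and 77, where 0.437%, 1.71%, 1.02% and 0.139% of all genes did. The list was chosen with earlier results of these data known, so these shares are no test of the pathway. The list's median log2 changes were 0.27, 0.25, 0.24 and -0.03, and none of its genes passed in WT8 against PRC3.

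A list of genes taken as HIF-2a targets, outside glucose metabolism, was read in the same comparisons. Neither its tie to SLC2A1 and ENO2 nor the dependence of each listed gene on HIF-2a was tested. This list too was chosen with earlier results of these data known, so its counts are descriptions. The list's median log2 change in WT8 was -1.69, beside 0.01 over all genes. There 10 of 14 measured genes of the list fell and 1 rose (BNIP3), while 2.71% of all genes fell and 3.26% rose. Those named by size were EGLN3, CCND1, NDRG1 and ADM, with log2 changes of -4.16, -3.25, -3.06 and -2.98; 2 of 3 WT8 arrays of EGLN3 were at the floor, so its fall is at least that large. With compound 40 2 fell, VEGFA and CCND1 (0.41% of all genes fell), and with compound 41 4 fell (1.63%) and ANGPTL4 rose (1.71%). With compound 76 2 fell, VEGFA and IGFBP3 (0.761%), and ANGPTL4 rose (1.02%), while with compound 77 0 passed (0.0397% lower and 0.139% higher). VEGFA, the angiogenic growth factor, fell 4.18-fold with compound 41, 2.58-fold with compound 76 and 2.46-fold with compound 40.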

How the data were processed

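RNA was labelled and hybridised per the labels' protocols, and the authors deposited 1 table of linear probe set intensities, made with MAS5 per the submitters' processing notes (version and scaling target are missing from the notes used here). The intensities of 26 arrays were quantile normalized without 62 control probe sets, set to at least 20 and at most 16000 (no deposited value exceeded 15221) and then put on a log2 scale. A probe set was kept if at least 3 of the 24 replicated arrays gave it no less than that array's median, which left 35013 of 54613, and 28327 of these had 1 gene in GEO's platform annotation. Of 41091 single-gene probe sets 41037 were found in RefSeq by Entrez identifier, and 0 symbols changed.

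The 24 arrays of 8 groups were fitted together with limma 3.58.1 in R 4.3.3 (lmFit, eBayes with trend, 16 residual degrees of freedom), and changes were called at a Benjamini-Hochberg adjusted p below 0.05 over all kept probe sets. The scripts were tested on simulated data. Means ± SD are of linear signals, folds of mean log2 signals, and intervals are at 95%. Every member is named, with values on each array for called members and their isozymes, and other genes come only from lists, by size of change. The members and lists were chosen with earlier results of these data known. Alternatives were other scaling, filter and floor, only the groups compared, the replicate number as a block, other probe sets and leaving out arrays.

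Replicate numbers come from the titles. Deviations from the group means of same-numbered arrays correlated between 0.01 and 0.46, and passed the preset limit for every pair in 5 of 13 comparisons: DMSO against Blk, compounds 41 and 76 against DMSO, WT8 against PRC3, and compound 41 against 76.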

Additional observations from a re-analysis of the deposited data

How the results depend on the processing

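No called change and no count of called members reversed, but the members' median with compounds 40 and 76 changed sign with the scaling, as given in the report. Of 12 called values, 8 kept their call in every fit without 1 array and 4 under every other alternative: PFKM and ENO2 with compound 41, and SLC2A1 and PFKP in WT8. With only the 2 groups compared, and so fewer arrays in the fit, 0 members were called with compound 76, 2 in WT8 against PRC3 (SLC2A1 and PFKP) and 0 in PRC3 against Blk. In PRC3 against Blk 1 member was called with median scaling and 1 with no filter, since GPI was lost (adjusted p = 0.0694 and 0.0736). Without a filter PFKL and SLC2A8 also missed the threshold in WT8 (0.0573 and 0.0532), and with a floor of 50 SLC2A8 did (0.672), because the higher floor hides most of its range. The replicate block, in comparisons where the pairing did not hold throughout, called 1 member with compound 40 (SLC2A1, -0.45, adjusted p = 0.0417). Over the 6 compound pairs it called 2, SLC2A1 between 41 and 76 and between 76 and 77 (-0.70, adjusted p = 0.00194), and beyond those named in the report it changed no other call of a member; 22 of 24 arrays correlated best with their own number. With signals as deposited PFKL was lost in WT8 (adjusted p = 0.0622) and GPI in PRC3 against Blk (0.0567), while 1 pair was called (SLC2A1 between 76 and 77, adjusted p = 0.0331), as was HK2 with compound 41 (-0.74, adjusted p = 0.0471) and in PRC3 against Blk (0.83, adjusted p = 0.0482). PGAM1 was called with compound 41 without a filter and with the floor of 50 (adjusted p = 0.0311 and 0.0161). Leaving out 1 array, the members called ranged from 0 to 1 with compound 40, 1 to 2 with compound 76, 0 to 1 with compound 77, 1 to 2 in PRC3 against Blk, 4 to 7 in WT8 against PRC3 and 0 to 1 over the compound pairs, where SLC2A1 between 76 and 77 passed without compound 40 replicate 1 or 3 (adjusted p = 0.0375 and 0.0452). The cause of these changes was not tested. Signals near the floor (SLC2A8, SLC2A12, PFKFB2 and ENO3) limit what small falls can be seen.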
